A study of Mus musculus with 2 samples.

Results

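The division programme was followed through 45 cell cycle genes, named by symbol, in non-cardiomyocytes of the infarcted mouse heart. All 45 were found among the 32287 features of the count tables, 1 row each: 25 mitosis genes, 17 replication genes and 3 genes of G1 and growth. A cell passes from G1 into S phase, where it copies its DNA, and then through G2 into mitosis, where the copies are parted. E2F factors switch on the replication genes at the G1/S border, while the DREAM complex holds the mitosis genes silent in resting cells and MYBL2 and FOXM1 raise them later, so transcripts of the 2 lists peak at different times. In the infarct, fibroblasts, endothelial cells and leukocytes divide in the first days while cardiomyocytes hardly do.

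The mice carried p16-2A-CreER and R26-mTmG. In this pair of alleles the inducible Cre is made from the p16 locus (Cdkn2a), so a cell that used the locus when tamoxifen was present, and its descendants, turn from membrane tomato to membrane GFP. Every mouse behind both libraries had this genotype, a myocardial infarction (MI) and tamoxifen by gavage on day 5, and the infarct region was digested on day 7. Non-cardiomyocytes were sorted into GFPhi and GFPlo, which other label fields call GFP-positive and GFP-negative, and each fraction gave 1 droplet 3′ library. How many animals were pooled is not given in the labels, there were no replicates, and no uninjured or untreated sample was analysed here, so differences between the libraries could not be tested. All intervals are exact 95% intervals, and they cover counting error only.

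After filtering, 10125 cells of GFPhi and 11959 of GFPlo remained, of 91343549 and 104855204 unique molecular identifiers (UMIs) in all, with medians of 6899 and 7712 UMIs per cell. The libraries shared 92 cell barcodes among kept cells, of which 1 had the same class in both. Clusters were formed without the cell cycle genes and named from markers. GFPhi was 74.8% macrophage-like cells (7575), with 361 fibroblast-like, 529 mesothelial-like, 287 endothelial-like and 103 lymphatic endothelial-like cells. GFPlo held 6394 fibroblast-like, 1906 mesothelial-like, 1180 endothelial-like, 282 lymphatic endothelial-like and 271 T-like cells. These 10 groups of at least 100 cells are described here, and the sort itself sets which classes each library holds. In each, all or all but 1 of the class's own markers reached 10 CPM (UMIs of a gene per 1000000 UMIs of the group, summed over its cells), and cardiomyocyte markers summed to between 1.79 and 13.4 CPM. The T-like cluster had Arpp21, Dntt and Themis, genes of developing T cells, among its leading genes. Cells of the same class carried more macrophage marker UMIs in GFPhi than in GFPlo, with values given beside that comparison. Fibroblast markers went the other way. In GFPhi and GFPlo they summed to 2189 and 8100.0 CPM in endothelial-like cells and to 848 and 5789 CPM in lymphatic endothelial-like cells. The sums were 15616 and 23083 CPM in mesothelial-like cells, and 3908 CPM in T-like cells of GFPlo. How much of this came from other cells was not tested.

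The control regions of the genes are shown first, because they do not rest on the counts. RefSeq promoters of GRCm38.p6, each 300 bases from 250 before the start of transcription to 50 after it, were at hand for 36 of the 45 genes (38 promoters). There were none for Ccna2, Aurkb, Tpx2, Mcm4, Gins2, Ccne2, Stmn1, Ccnd1 and Ccnd2. The motifs searched on both strands were CCAAT, the box bound by NF-Y, the cell cycle homology region TTTGAA or TTCGAA (CHR), bound by the DREAM complex and its activating relatives, and the E2F site TTTGGCGC or TTTCGCGC. Ccnb2 (cyclin B2) and Cdk1 (its kinase) stand for the mitosis list. Mcm5 (a subunit of the replicative helicase) and Asf1b (a chaperone that brings histones to new DNA) stand for the replication list. Capitals mark the motif matches on either strand, where ATTGG is CCAAT on the other strand, and all are written along the strand of the gene. The windows are chr9:70421505-70421804 (minus strand) for Ccnb2, chr10:69352863-69353162 (minus) for Cdk1, chr8:75109259-75109558 (plus) for Mcm5 and chr8:83955444-83955743 (plus) for Asf1b.
Ccnb2: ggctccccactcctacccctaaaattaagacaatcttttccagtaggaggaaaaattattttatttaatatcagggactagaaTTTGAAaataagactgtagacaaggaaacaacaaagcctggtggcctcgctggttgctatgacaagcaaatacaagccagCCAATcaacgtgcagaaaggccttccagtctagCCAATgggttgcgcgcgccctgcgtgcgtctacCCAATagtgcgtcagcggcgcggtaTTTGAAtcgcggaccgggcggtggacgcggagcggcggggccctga
Cdk1: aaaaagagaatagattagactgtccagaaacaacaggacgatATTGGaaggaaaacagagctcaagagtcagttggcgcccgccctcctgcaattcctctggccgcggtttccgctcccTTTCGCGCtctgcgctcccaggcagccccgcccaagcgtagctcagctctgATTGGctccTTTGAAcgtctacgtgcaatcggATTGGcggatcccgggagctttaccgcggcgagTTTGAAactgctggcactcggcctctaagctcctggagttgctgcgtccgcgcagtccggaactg
Mcm5: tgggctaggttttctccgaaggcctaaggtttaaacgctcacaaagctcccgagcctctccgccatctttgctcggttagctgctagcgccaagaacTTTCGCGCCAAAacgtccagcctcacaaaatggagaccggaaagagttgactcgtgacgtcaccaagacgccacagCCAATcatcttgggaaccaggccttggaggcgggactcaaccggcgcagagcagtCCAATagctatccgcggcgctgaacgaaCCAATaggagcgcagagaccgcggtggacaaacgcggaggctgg
Asf1b: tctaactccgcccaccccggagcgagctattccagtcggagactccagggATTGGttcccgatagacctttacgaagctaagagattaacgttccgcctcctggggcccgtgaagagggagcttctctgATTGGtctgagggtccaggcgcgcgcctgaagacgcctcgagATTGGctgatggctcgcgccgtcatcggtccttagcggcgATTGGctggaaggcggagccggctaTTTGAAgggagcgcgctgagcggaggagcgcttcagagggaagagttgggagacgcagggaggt
Ccnb2 held 3 CCAAT boxes, the first bases of which lay at -87, -54 and -21 from the start, with a CHR at -167 and another at 4. Cdk1 held an E2F site at -131, 3 CCAAT boxes on the other strand and a CHR at -71 and -15. In Mcm5 the run TTTCGCGCCAAA held TTTCGCGC on one strand and TTTGGCGC on the other, overlapping, and 3 CCAAT boxes lay nearer the start. Asf1b had 4 CCAAT boxes and a CHR at -14.

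Over the lists, a CHR stood in 82.6% of the mitosis promoters (18 of 22 genes), in 20% of the replication promoters (3 of 14 genes: Mcm7, Mcm2 and Asf1b) and in 19.2% of all 32851 promoters. CCAAT stood in 87.0% of mitosis promoters, 73.3% of replication promoters and 37.4% of all promoters. Both motifs together were present in 78.3%, 20% and 7.52%. The E2F letters were found in 26.7% of replication promoters (Mcm3, Mcm5, Mcm6 and Mcm7), in 4.35% of mitosis promoters (Cdk1) and in 0.813% of all. A match is a match of letters and not a shown binding site.

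The summed mitosis genes were highest in T-like cells of GFPlo, at 4894 CPM, and next in lymphatic endothelial-like cells of the same library, at 2547 CPM. Mki67 (ENSMUSG00000031004, chr7:135689784-135716361), the coat protein of mitotic chromosomes, is used as a mark of dividing cells. In GFPhi it stood at 56.9 CPM (55.1 to 58.8) in macrophage-like, 43.9 (39.2 to 49.1) in fibroblast-like, 15.4 (13.5 to 17.5) in mesothelial-like, 83.3 (70.9 to 97.3) in endothelial-like and 63.9 (49.8 to 80.7) in lymphatic endothelial-like cells. In GFPlo it stood at 29.7 CPM (28.3 to 31.1) in fibroblast-like, 28.5 (26.6 to 30.5) in mesothelial-like, 42.5 (36.8 to 48.8) in endothelial-like, 207 (187 to 229) in lymphatic endothelial-like and 353 (325 to 382) in T-like cells. The T-like and lymphatic GFPlo levels lay above all 8 other groups, and fibroblast-like and mesothelial-like GFPlo cells had overlapping intervals. Top2a (ENSMUSG00000020914, chr11:98992943-99024189) untangles the copied DNA before the chromosomes part. Its GFPhi levels were 60.9 CPM (59.0 to 62.9) in macrophage-like, 56.2 (50.9 to 62.0) in fibroblast-like, 30.3 (27.6 to 33.2) in mesothelial-like, 176 (158 to 196) in endothelial-like and 121 (102 to 144) in lymphatic endothelial-like cells. Its GFPlo levels were 39.3 CPM (37.8 to 40.9) in fibroblast-like, 45 (42.5 to 47.5) in mesothelial-like, 58.1 (51.4 to 65.4) in endothelial-like, 215 (194 to 236) in lymphatic endothelial-like and 672 (633 to 712) in T-like cells. By summed UMIs, endothelial-like GFPhi cells thus stood above every other class of their library for Top2a, while the endothelial-like cells of GFPlo did not. With every cell counted alike, as the mean of per-cell CPM, Top2a was at 91.0 CPM in endothelial-like and 84.5 CPM in lymphatic endothelial-like GFPhi cells.

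Cdk1 (ENSMUSG00000019942, chr10:69335146-69352938), the kinase that drives entry into mitosis, kept the same leaders. GFPhi gave 40.1 CPM (38.6 to 41.7) in macrophage-like, 60.4 (54.9 to 66.4) in fibroblast-like, 44.0 (40.8 to 47.5) in mesothelial-like, 129 (113 to 146) in endothelial-like and 68.4 (53.8 to 85.8) in lymphatic endothelial-like cells. GFPlo gave 45 CPM (43.3 to 46.7) in fibroblast-like, 59.1 (56.3 to 62.0) in mesothelial-like, 54.9 (48.4 to 62.0) in endothelial-like, 148 (131 to 167) in lymphatic endothelial-like and 223 (201 to 247) in T-like cells. Macrophage-like cells were the lowest class of GFPhi for Cdk1 beside mesothelial-like cells, whereas mesothelial-like cells alone were lowest for Mki67 and Top2a. Ccnb1 (ENSMUSG00000041431, chr13:100778650-100786570) encodes cyclin B1, the partner of Cdk1. It was counted at 12.1 CPM (11.3 to 13) in macrophage-like, 16.4 (13.5 to 19.6) in fibroblast-like, 11.3 (9.67 to 13.1) in mesothelial-like, 18.2 (12.7 to 25.3) in endothelial-like and 17.3 (10.4 to 27.1) in lymphatic endothelial-like cells of GFPhi. In GFPlo it was counted at 9.32 CPM (8.57 to 10.1) in fibroblast-like, 12.9 (11.6 to 14.3) in mesothelial-like, 7.69 (5.39 to 10.6) in endothelial-like, 47.0 (37.8 to 57.7) in lymphatic endothelial-like and 85.8 (72.4 to 101) in T-like cells. In GFPhi the Ccnb1 intervals of fibroblast-like, endothelial-like and lymphatic endothelial-like cells overlapped, so their order was not resolved at this depth.

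Within GFPlo all 25 mitosis genes had their highest level in T-like cells, and for 22 the interval lay above that of the next class; of all 10755 genes ranked, 35.3% were highest there and 17.6% with separate intervals. The exceptions were Aurka (a spindle pole kinase), Prc1 (which bundles the midzone spindle) and Kif20b (a midzone motor), where lymphatic endothelial-like cells came within the counting error: Prc1 stood at 191 CPM in T-like and 185 CPM in lymphatic endothelial-like cells. Within GFPhi, where T-like cells were too few to rank, endothelial-like cells led for 21 mitosis genes, against 20.8% of 10660 genes. Only 5 of these had separate intervals (Top2a, Cdk1, Bub1, Prc1 and Cdca8; 5.15% of all genes). Bub1, a checkpoint kinase at the kinetochore, stood at 18.7 CPM in endothelial-like cells and 6.02 CPM in macrophage-like cells, the next class. Lymphatic endothelial-like cells led for the other 4, Ccnb2, Cdc20, Cenpa and Aurkb, against 34.4% of all genes, and none was separate (7.68%).

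**Figure D1:**
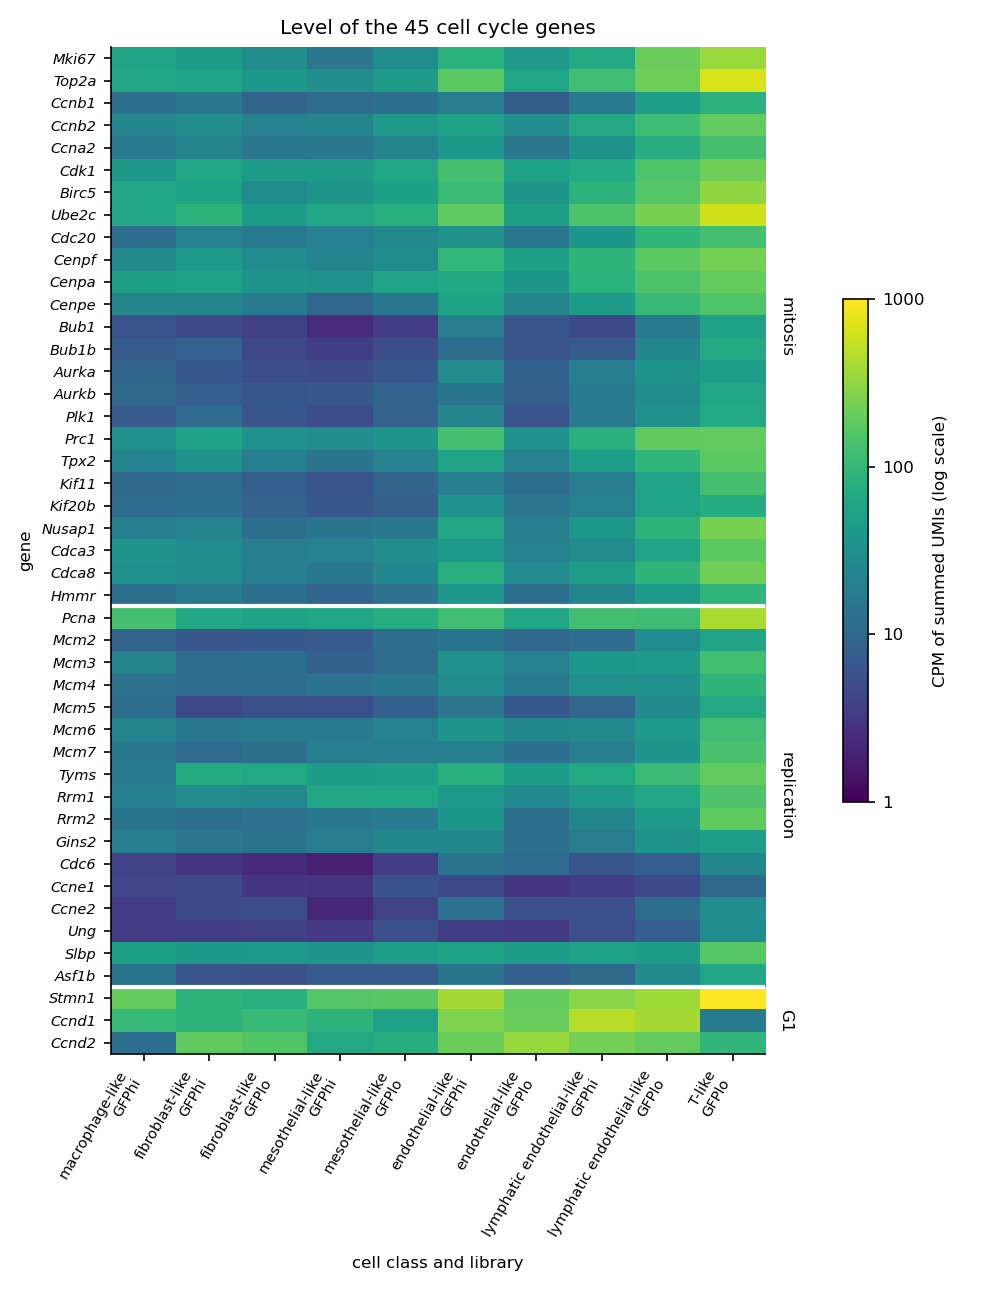
Heat map of the level of each of the 45 genes (rows, by list: mitosis, replication, and G1 for G1 and growth) in the 10 groups of cells (columns); colour is CPM of UMIs summed over the cells, on a log scale, 1 library per column. The T-like GFPlo column is brightest for the mitosis and replication genes, such as Top2a at 672 CPM, while Ccnd1 is darkest there at 16.7 CPM.

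The summed replication genes ranged from 301 to 1898 CPM over the 10 groups, and the summed mitosis genes from 467 to 4894 CPM. Pcna (ENSMUSG00000027342, chr2:132249162-132253314), the sliding clamp of the replicative polymerases, was highest in macrophage-like cells among the classes of GFPhi. Pcna levels in GFPhi were 132 CPM (129 to 135) in macrophage-like, 61.4 (55.8 to 67.5) in fibroblast-like, 58.6 (54.8 to 62.6) in mesothelial-like, 120.3 (105 to 137) in endothelial-like and 123 (103 to 146) in lymphatic endothelial-like cells. In GFPlo the Pcna levels were 55.3 CPM (53.4 to 57.2) in fibroblast-like, 74.5 (71.4 to 77.8) in mesothelial-like, 57.9 (51.2 to 65.2) in endothelial-like, 118 (104 to 135) in lymphatic endothelial-like and 419 (388 to 451) in T-like cells. The macrophage-like, endothelial-like and lymphatic endothelial-like intervals of GFPhi overlapped for Pcna. Mcm5 (ENSMUSG00000005410, chr8:75109569-75128439), the helicase subunit whose promoter is printed here, was low in stromal cells. GFPhi cells held 12.1 CPM (11.3 to 13) in macrophage-like, 4.62 (3.18 to 6.48) in fibroblast-like, 5.45 (4.34 to 6.75) in mesothelial-like, 15.6 (10.5 to 22.3) in endothelial-like and 10.0 (5.01 to 18.0) in lymphatic endothelial-like cells. GFPlo cells held 5.43 CPM (4.87 to 6.05) in fibroblast-like, 8.21 (7.19 to 9.33) in mesothelial-like, 6.62 (4.50 to 9.40) in endothelial-like, 27.1 (20.3 to 35.6) in lymphatic endothelial-like and 66.7 (54.9 to 80.3) in T-like cells. T-like cells again stood apart from every other group.

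Rrm2 (ENSMUSG00000020649, chr12:24708241-24714146), the subunit of ribonucleotide reductase that is made and destroyed with S phase, was highest in T-like cells. It reached 14.6 CPM (13.7 to 15.6) in macrophage-like, 12.5 (10.0 to 15.3) in fibroblast-like, 16.4 (14.4 to 18.6) in mesothelial-like, 39.0 (30.7 to 48.9) in endothelial-like and 23.7 (15.5 to 34.8) in lymphatic endothelial-like cells of GFPhi. In GFPlo it reached 13.7 CPM (12.8 to 14.7) in fibroblast-like, 17 (15.5 to 18.6) in mesothelial-like, 12.8 (9.78 to 16.5) in endothelial-like, 43.3 (34.5 to 53.7) in lymphatic endothelial-like and 184 (164 to 206) in T-like cells. Endothelial-like GFPhi and lymphatic endothelial-like GFPlo cells came after T-like cells. Ccne1 (ENSMUSG00000002068, chr7:38097984-38107534) and Ccne2 (ENSMUSG00000028212, chr4:11191351-11204779) encode the E cyclins that start S phase. Ccne1 was at 4.24 CPM (3.74 to 4.78) in macrophage-like, 4.76 (3.29 to 6.65) in fibroblast-like, 2.89 (2.10 to 3.88) in mesothelial-like, 4.69 (2.14 to 8.89) in endothelial-like and 3.65 (0.994 to 9.35) in lymphatic endothelial-like cells of GFPhi. In GFPlo, Ccne1 was at 2.97 CPM (2.55 to 3.43) in fibroblast-like, 5.77 (4.92 to 6.72) in mesothelial-like, 2.99 (1.63 to 5.02) in endothelial-like, 4.70 (2.15 to 8.92) in lymphatic endothelial-like and 10.1 (5.90 to 16.2) in T-like cells. At these counts the T-like level of Ccne1 overlapped those of mesothelial-like and lymphatic endothelial-like cells, among others. Ccne2 was at 3.41 CPM (2.97 to 3.90) in macrophage-like, 5.04 (3.53 to 6.97) in fibroblast-like, 2.23 (1.55 to 3.12) in mesothelial-like, 13.5 (8.84 to 19.8) in endothelial-like and 5.47 (2.01 to 11.9) in lymphatic endothelial-like cells of GFPhi. In GFPlo, Ccne2 was at 5.25 CPM (4.70 to 5.86) in fibroblast-like, 3.81 (3.13 to 4.59) in mesothelial-like, 5.34 (3.46 to 7.88) in endothelial-like, 12 (7.61 to 18.0) in lymphatic endothelial-like and 29.2 (21.6 to 38.6) in T-like cells. Unlike Ccne1, Ccne2 in T-like cells lay above all other groups.

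All 17 replication genes were highest in T-like cells within GFPlo (35.3% of 10755 genes), 15 with separate intervals (17.6%). Gins2 (a subunit of the helicase complex) and Ccne1 were the others. Within GFPhi endothelial-like cells led for 10 of the 17 (20.8% of all genes) and lymphatic endothelial-like cells for Mcm3, Mcm4 and Ung (34.4%). Macrophage-like cells led for Pcna and Asf1b (15.7%), mesothelial-like cells for Rrm1 (15.3%) and fibroblast-like cells for Ccne1 (13.8%). None of the 17 had a separate interval there, against 10.8% of all genes for macrophage-like, 9.17% for mesothelial-like, 7.10% for fibroblast-like, 7.68% for lymphatic endothelial-like and 5.15% for endothelial-like cells. The classes also differed gene by gene. Tyms, which makes thymidylate, stood at 69.7 and 65.8 CPM in fibroblast-like cells of GFPhi and GFPlo but at 16.7 CPM in macrophage-like cells. Rrm1, the constant subunit of ribonucleotide reductase, stood at 57.5 and 57.3 CPM in mesothelial-like cells of the libraries, against 19.5 CPM in macrophage-like cells. Over all 10 groups, 28 of the 45 genes stayed at or above 10 CPM in every one, and each of the 45 reached that level in at least 1.

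The 3 genes of G1 and growth split. Stmn1 (ENSMUSG00000028832, chr4:134468320-134473843), which takes microtubules apart, had the same leaders as the mitosis genes. It was at 193 CPM (190.0 to 197) in macrophage-like, 87.7 (81.0 to 94.9) in fibroblast-like, 161 (155 to 167) in mesothelial-like, 393 (365 to 422) in endothelial-like and 292 (261 to 326) in lymphatic endothelial-like cells of GFPhi. In GFPlo it was at 78.4 CPM (76.2 to 80.7) in fibroblast-like, 169.9 (165 to 175) in mesothelial-like, 194 (181 to 207) in endothelial-like, 373 (346 to 402) in lymphatic endothelial-like and 1491 (1433 to 1550.3) in T-like cells. Ccnd1 (ENSMUSG00000070348, chr7:144929931-144939925), cyclin D1, which couples growth signals to Cdk4 and Cdk6, was the reverse in T-like cells. Its GFPhi levels were 103 CPM (101 to 106) in macrophage-like, 86.6 (79.9 to 93.7) in fibroblast-like, 86.4 (81.8 to 91.2) in mesothelial-like, 263 (240.5 to 287) in endothelial-like and 480.0 (439.8 to 523) in lymphatic endothelial-like cells, the highest class. Its GFPlo levels were 109 CPM (106 to 112) in fibroblast-like, 52.1 (49.5 to 54.8) in mesothelial-like, 206 (193 to 219) in endothelial-like, 393 (365 to 422) in lymphatic endothelial-like and 16.7 (11.1 to 24.1) in T-like cells, the lowest group of all. Ccnd2 (ENSMUSG00000000184, chr6:127125162-127152193), cyclin D2, was lowest in macrophage-like cells. It was counted in GFPhi at 12.4 CPM (11.6 to 13.3) in macrophage-like, 186 (176 to 196) in fibroblast-like, 64.1 (60.1 to 68.2) in mesothelial-like, 212 (192 to 234) in endothelial-like and 234 (206 to 264) in lymphatic endothelial-like cells. In GFPlo it was counted at 154 CPM (151 to 158) in fibroblast-like, 74.6 (71.5 to 77.9) in mesothelial-like, 345 (328 to 362) in endothelial-like, 189 (170.0 to 209) in lymphatic endothelial-like and 94.1 (80.0 to 110.0) in T-like cells. So macrophage-like cells held Ccnd1 with little Ccnd2, T-like cells Ccnd2 with little Ccnd1, and both endothelial classes held both.

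Summed UMIs of the 25 mitosis genes were above those of the 17 replication genes in every group, by different amounts. The lists differ in length and the ratios were not scaled for it. A ratio over 1 is therefore not by itself a lean towards mitosis. Macrophage-like cells held 661 CPM of mitosis and 375 CPM of replication transcripts, a ratio of 1.76 (1.73 to 1.79). Fibroblast-like cells held 758 and 309 CPM in GFPhi, a ratio of 2.45 (2.33 to 2.58), and 489 and 301 CPM in GFPlo, a ratio of 1.62 (1.59 to 1.65). Mesothelial-like cells gave 1.45 (1.40 to 1.51) in GFPhi and 1.72 (1.68 to 1.76) in GFPlo. The ratio was 2.86 (2.67 to 3.07) and 1.94 (1.82 to 2.06) in endothelial-like cells of GFPhi and GFPlo, and 2.48 (2.24 to 2.75) and 3.74 (3.52 to 3.98) in lymphatic endothelial-like cells, where the GFPlo value was the highest of the 10 groups. T-like cells, with 4894 and 1898 CPM, gave 2.58 (2.47 to 2.69). With each cell thinned to 2000 UMIs the ratios were lower in 9 groups, between 1.22 and 2.68, and 2.64 in T-like cells.

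To count cells and not transcripts, each cell was thinned to 2000 UMIs and called mitosis-positive or replication-positive with at least 3 UMIs of the list. T-like cells of GFPlo stood apart: 60.8% (53.3 to 67.8%) of 186 were mitosis-positive and 55.9% (48.5 to 63.2%) replication-positive. Either call applied to 74.7% of them and both to 41.9%. They are the single cluster with genes of developing T cells, such as Arpp21 and Dntt, and do not stand for all T cells. Another GFPlo cluster, outside this class, carried natural killer markers with Cd3e in 51.0% and Trac in 55.4% of its cells. Of that cluster 17.3% were mitosis-positive. Among the 10 groups, lymphatic endothelial-like cells of GFPlo came next, with 18.5% (13.8 to 24.0%) of 238 mitosis-positive and 12.2% (8.31 to 17%) replication-positive, against 10.2% (5.00 to 18.0%) and 6.12% (2.28 to 12.9%) of 98 in GFPhi. The intervals of the 2 libraries overlapped in this class. Endothelial-like cells had 10.7% (6.90 to 15.6%) mitosis-positive in GFPhi and 6.87% (5.20 to 8.87%) in GFPlo, again overlapping. Their replication-positive shares were 10.2% (6.52 to 15.1%) and 4.83% (3.44 to 6.58%).

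The stromal and macrophage-like groups lay lower. Macrophage-like cells of GFPhi were 5.95% (5.42 to 6.52%) mitosis-positive and 4.92% (4.43 to 5.44%) replication-positive, of 7243 cells. In fibroblast-like cells the mitosis-positive share was 5.88% (3.68 to 8.85%) in GFPhi and 4.22% (3.74 to 4.75%) in GFPlo, and the replication-positive share 4.20% (2.37 to 6.84%) and 3.52% (3.08 to 4.01%). Mesothelial-like cells had 5.75% (3.91 to 8.10%) mitosis-positive in GFPhi and 8.80% (7.56 to 10.2%) in GFPlo, with 4.41% (2.81 to 6.54%) and 4.66% (3.76 to 5.71%) replication-positive. With the cell cycle genes allowed in the clustering, the mitosis-positive share of fibroblast-like cells was 1.54% in GFPhi and 1.56% in GFPlo. In none of the 4 classes held by both libraries were the intervals of GFPhi and GFPlo separate, for either call. For the background, 3 of 20 neutrophil-like cells deep enough were mitosis-positive (15.0%, 3.21 to 37.9%), too few to set a floor (their median was 1279 UMIs), and the lowest share among clusters with at least 50 such cells in a library was 1.40%, of 2148 fibroblast-like cells.

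Depth mattered to these shares. Without thinning, the mitosis-positive share was 12.8% in macrophage-like cells, 18.0% and 8.35% in fibroblast-like cells of GFPhi and GFPlo, 24.8% and 20.1% in mesothelial-like, 11.8% and 7.46% in endothelial-like, 14.6% and 23.4% in lymphatic endothelial-like cells, and 48.7% in T-like cells. The replication-positive share was then 28.9% in macrophage-like cells, 59.6% and 29.5% in fibroblast-like, 80.3% and 56.5% in mesothelial-like, 24.4% and 10.8% in endothelial-like, 41.7% and 33.7% in lymphatic endothelial-like cells, and 54.2% in T-like cells. Median UMIs per cell were 7147 in macrophage-like cells, 17049 and 8479.5 in fibroblast-like, 27967 and 13943 in mesothelial-like, 4643 and 3189 in endothelial-like, 7973 and 5057 in lymphatic endothelial-like and 4764 in T-like cells. Thinning changed the order of the libraries for both shares in mesothelial-like cells, the deepest class, and for the replication-positive share in lymphatic endothelial-like cells. Cells below 2000 UMIs were left out, which removed 25.1% and 33.4% of endothelial-like, 31.4% of T-like and between 0.997% and 15.6% of the other groups. Of macrophage-like cells 45 had exactly 3 mitosis UMIs and 175 had 1 fewer. More cells lay at the replication threshold. Of the 356 replication-positive macrophage-like cells 151 had exactly 3 replication UMIs, and 537 other cells had 1 fewer. In fibroblast-like GFPlo cells 96 of 222 had exactly 3, and 340 had 1 fewer. Mitosis-positive cells had more UMIs than the others, as in macrophage-like cells (median 13810.0 UMIs against 7146) and fibroblast-like cells of GFPhi (32466 against 16759).

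**Figure D2:**
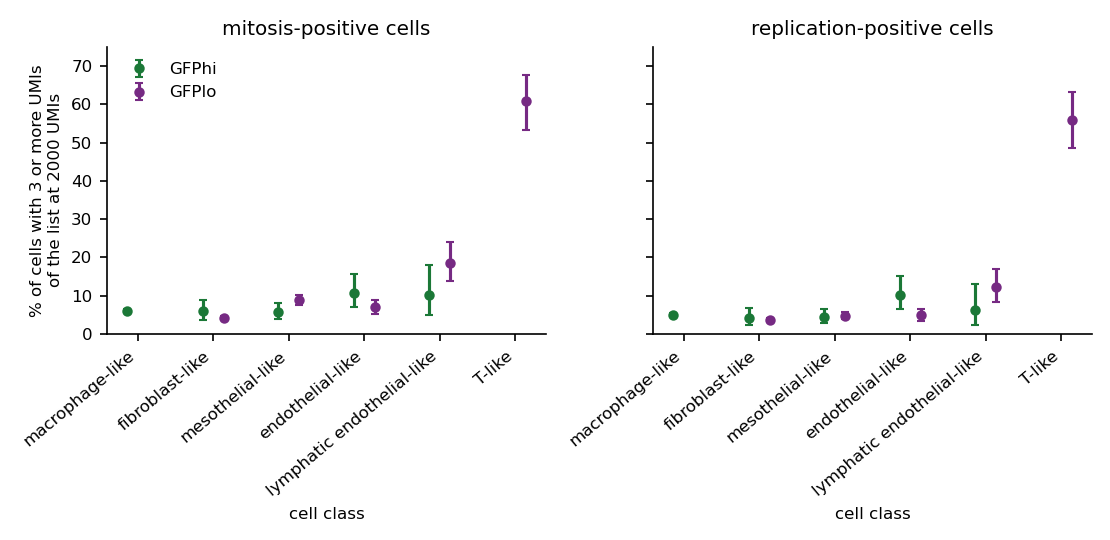
Percentage of cells with 3 or more UMIs of the mitosis genes (left) or the replication genes (right) after thinning to 2000 UMIs, by class and library; points are shares, bars exact 95% intervals, green GFPhi, purple GFPlo, 1 library each. T-like GFPlo cells stand at 60.8% and 55.9%, and the next group, lymphatic endothelial-like GFPlo cells, at 18.5% and 12.2%.

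Within a class the division programme sat in particular clusters, formed without these genes. Among macrophage-like cells of GFPhi, the cluster led by Timd4, Cd163 and Fcna was 11.3% (9.49 to 13.2%) mitosis-positive. Its leading genes were mixed: Timd4, Cd163 and Folr2 are genes of resident macrophages, but Arg1 and F13a1 were also among them. Ccr2 was among its markers as well. The cluster led by Npy, Mmp12 and Gpnmb was at 9.94% (8.46 to 11.6%). The MHC class II cluster (H2-Eb1, H2-Aa) was at 4.21% (3.39 to 5.16%), and the cluster led by Gdf15 and Apoe at 2.56% (1.97 to 3.25%), so the first pair lay above the second. Among fibroblast-like cells of GFPlo, the cluster with Acta2, Myl9 and Tnc, genes of contractile and matrix-remodelling cells, was at 15.6% (13.2 to 18.3%). The clusters led by Thbs4 and Col2a1, by Scara5 and Pi16, and by Sfrp2 were at 3.67%, 3.16% and 1.40% (0.944 to 1.99%). The same Acta2 cluster was at 11.5% (6.55 to 18.2%) in GFPhi, where the Sfrp2 cluster was at 1.77% (0.215 to 6.25%), below it. The Scara5 and Thbs4 clusters of GFPhi, at 3.28% (0.400 to 11.3%) and 3.85% (0.469 to 13.2%), overlapped it in their intervals.

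In endothelial-like cells the cluster led by Prnd, Aplnr and Apln, genes of sprouting vessels, was 19.8% (12 to 29.8%) mitosis-positive in GFPhi and 9.93% (5.54 to 16.1%) in GFPlo. The larger endothelial-like cluster, led by Sost and with Npr3 and Vwf, was at 4.65% (1.73 to 9.85%) and 6.20% (4.47 to 8.35%). Mesothelial-like cells of the Pnoc cluster were at 5.58% (2.82 to 9.77%) in GFPhi and 9.59% (8.13 to 11.2%) in GFPlo, and those of the Krt14 and Slurp1 cluster at 5.85% (3.56 to 8.98%) and 6.09% (4.02 to 8.79%).

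**Figure D3:**
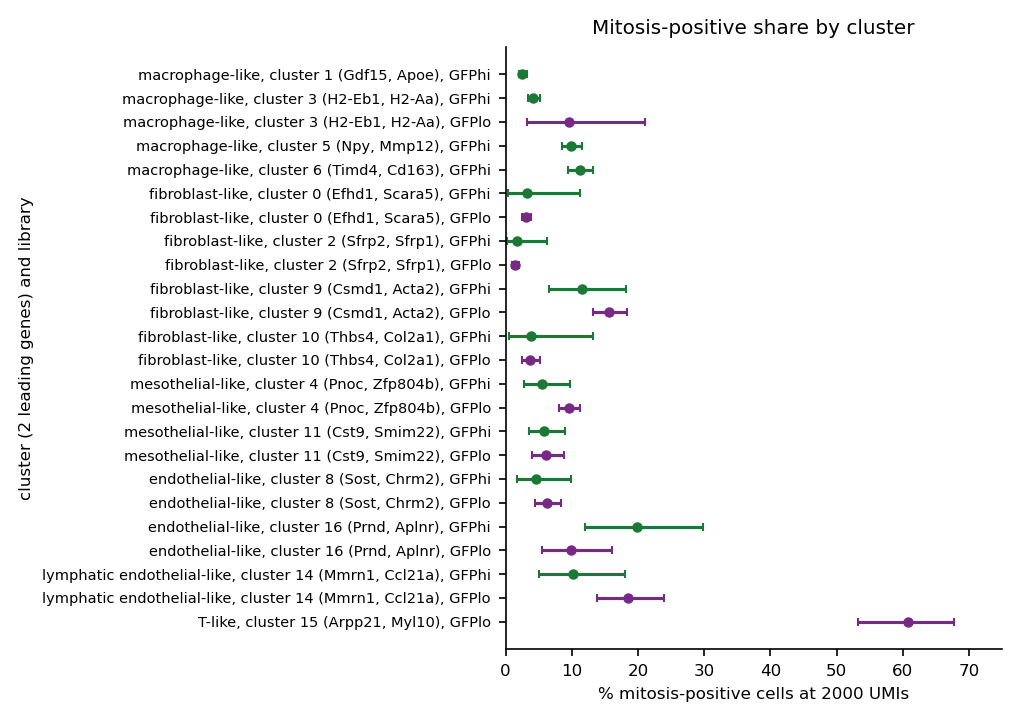
Percentage of mitosis-positive cells at 2000 UMIs in each cluster with at least 50 such cells, by class and library; the axis label gives 2 leading genes, points are shares and bars exact 95% intervals, green GFPhi, purple GFPlo. The Acta2 cluster of fibroblast-like cells (15.6% in GFPlo) and the Prnd cluster of endothelial-like cells (19.8% in GFPhi) stand above the other clusters of their class in that library.

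Transcripts of mitosis genes were held by few cells. Between 80.7% and 97.0% of the mitosis UMIs of a group lay in its mitosis-positive cells, whereas 24.0% to 81.0% of the replication UMIs lay in replication-positive cells. In macrophage-like cells these were 82.9% and 33.4%. Small groups therefore rested on single cells: 5 cells together held 50% or more of the mitosis UMIs in endothelial-like GFPhi, the top one 20%, and 3 cells in lymphatic endothelial-like GFPhi, the top one 26.8%. In endothelial-like and lymphatic endothelial-like GFPlo it took 13 and 10 cells, in fibroblast-like GFPhi 6 and GFPlo 65, in mesothelial-like GFPhi 11, and in macrophage-like cells 140.

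The lists met in the same cells but not evenly. Each gene was read in cells with and without 3 UMIs of the other list, pooled over the 10 groups at 2000 UMIs. T-like cells, with the highest sums of both lists, made up 104 of the 903 replication-positive and 113 of the 1158 mitosis-positive cells. Differences in level between groups therefore enter these pooled folds. All 25 mitosis genes had more UMIs per cell in replication-positive cells, from 2.87-fold (Cenpa, the centromeric histone) to 14.4-fold (Bub1), with a median of 8.42; at least 1.5-fold was reached by 16.0% of 13211 genes. All 17 replication genes had more in mitosis-positive cells, from 2.45-fold (Slbp, which binds histone mRNA) to 29.1-fold (Rrm2), with a median of 5.70, against 16.3% of genes. Rrm2 stood at 23.9 UMIs per 100 mitosis-positive cells and 0.822 per 100 others. Asf1b followed at 26.2-fold (20.1 to 34.3). Only 33.1% of Rrm2 UMIs and 35.5% of Asf1b UMIs lay outside mitosis-positive cells, against 79.9% for Pcna and 85.5% for Slbp.

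Stmn1 behaved as the division genes did, at 18.7-fold (17.7 to 19.8) in mitosis-positive cells, and from 2.99-fold in T-like cells to 31.1-fold in fibroblast-like cells of GFPlo. Ccnd1 did not: its ratio was 1.16 (1.02 to 1.30) over all groups, 2.5 (1.78 to 3.45) in endothelial-like GFPlo, 1.48 (1.19 to 1.82) in fibroblast-like GFPlo and 0.0923 (0.00205 to 0.718) in T-like cells, where 1 of its UMIs lay in mitosis-positive and 7 in other cells. Ccnd2 was lower in mitosis-positive cells, with a ratio under 1 in all 10 groups; of 11933 genes 1.53% were under 1 in every group. The interval lay under 1 in 5 of the 10: fibroblast-like GFPlo (0.635), mesothelial-like GFPlo (0.264), both endothelial-like groups (0.25 in GFPhi and 0.509 in GFPlo) and T-like cells (0.384).

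Among mitosis-positive cells, those with at least 3 replication UMIs and those with fewer carried mitosis genes at different levels. Each gene's own UMIs were left out of the call. Cdc20, which activates the anaphase-promoting complex, stood at 12.3 UMIs per 100 cells with at least 3 and 45 per 100 cells with fewer, a ratio of 0.273 (0.2 to 0.366). Cenpa stood at 35.9 and 100.1, a ratio of 0.359 (0.3 to 0.428), and Ccnb2 at 29.0 and 64.5, a ratio of 0.450 (0.366 to 0.549). The interval also lay under 1 for Ccnb1 (0.548), Cenpf (0.588), Cenpe (0.611), Ube2c (0.659), Tpx2 (0.682), Hmmr (0.765), Prc1 (0.806) and Birc5 (0.842). These encode kinetochore proteins (Cenpf, Cenpe), the ubiquitin carrier of the anaphase-promoting complex (Ube2c), spindle proteins (Tpx2, Hmmr, Prc1) and survivin (Birc5). That made 11 of 25, against 14.3% of 2647 genes. Top2a at 1.46 (1.30 to 1.63), Nusap1 at 1.24 (1.02 to 1.51) and Cdk1 at 1.20 (1.03 to 1.39) lay above 1 (15.6% of genes). Mki67 at 1.14 (0.994 to 1.30) and the mitotic kinases Plk1 at 0.830 (0.598 to 1.14), Aurka at 0.747 (0.518 to 1.06) and Aurkb at 1.19 (0.865 to 1.64) were not resolved. These cells were pooled over groups that differ in level, and within groups the number below 1 was between 2 and 12 and the number above 1 between 0 and 5, the last in endothelial-like GFPlo. These counts within groups have no background, because the share of all genes was counted only in the pooled cells.

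For 6 genes the ratio lay on the same side in every group: Cdc20, Cenpa, Ccnb2, Ube2c, Cenpf and Cenpe had a ratio under 1 in each of the 7 groups with enough cells, against 2.04% of 2647 genes. Not all of these ratios were resolved. In mesothelial-like GFPlo cells Cenpe was 0.919 (0.411 to 1.91) and Ube2c 0.884 (0.621 to 1.24). Cdc20 was 0.187 (0.0782 to 0.385) in macrophage-like cells, 0.173 (0.0805 to 0.331) in fibroblast-like GFPlo, 0.265 (0.102 to 0.581) in mesothelial-like GFPlo and 0.336 (0.173 to 0.641) in T-like cells. Cdc20 was 0.131 (0.00308 to 0.871) in endothelial-like GFPlo and 0.214 (0.0243 to 0.882) in lymphatic endothelial-like GFPlo, and no Cdc20 UMI was seen in the 10 mesothelial-like GFPhi cells with at least 3 replication UMIs. Top2a was less even, at 3.63 (2.06 to 6.63) in endothelial-like GFPlo and 1.08 (0.873 to 1.33) in macrophage-like cells.

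Replication-positive cells were split in the same way by their mitosis UMIs. With at least 3 mitosis UMIs, Rrm2 was 4.13-fold (2.99 to 5.78) higher, Asf1b 3.2-fold (2.04 to 5.15), Rrm1 2.88-fold (2.13 to 3.95) and Tyms 2.74-fold (2.07 to 3.67). Ccne1 (2.28), Slbp (1.73), Ccne2 (1.67), Pcna (1.57), Gins2 (1.54) and Mcm7 (1.43) also had intervals above 1, so 10 of 17 did, against 13.6% of 5715 genes. The helicase subunits Mcm2 (0.859), Mcm3 (1.11), Mcm4 (0.777), Mcm5 (1.34) and Mcm6 (1.03) had intervals across 1. Ung, which removes uracil from DNA, was lower at 0.532 (0.285 to 0.962), against 11.5% of genes. Within single groups the pooled count was reached only in fibroblast-like GFPlo: 10 of 17 genes had intervals above 1 in fibroblast-like GFPlo, 4 in macrophage-like, 2 each in T-like, mesothelial-like GFPlo and endothelial-like GFPlo, and 0 in lymphatic endothelial-like GFPlo and mesothelial-like GFPhi cells. The share of all genes with such intervals was not counted within single groups, so these counts have no background. Rrm2 was 2.55 (1.45 to 4.57) in macrophage-like, 7.00 (3.39 to 16.2) in fibroblast-like GFPlo and 2.53 (1.14 to 6.6) in T-like cells, while Gins2 was 3.49 (1.69 to 7.77) in fibroblast-like GFPlo and 0.333 (0.0446 to 2.49) in T-like cells. The genes with the largest pooled ratios supply nucleotides (Rrm1, Rrm2, Tyms) and bring histones (Asf1b).

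**Figure D4:**
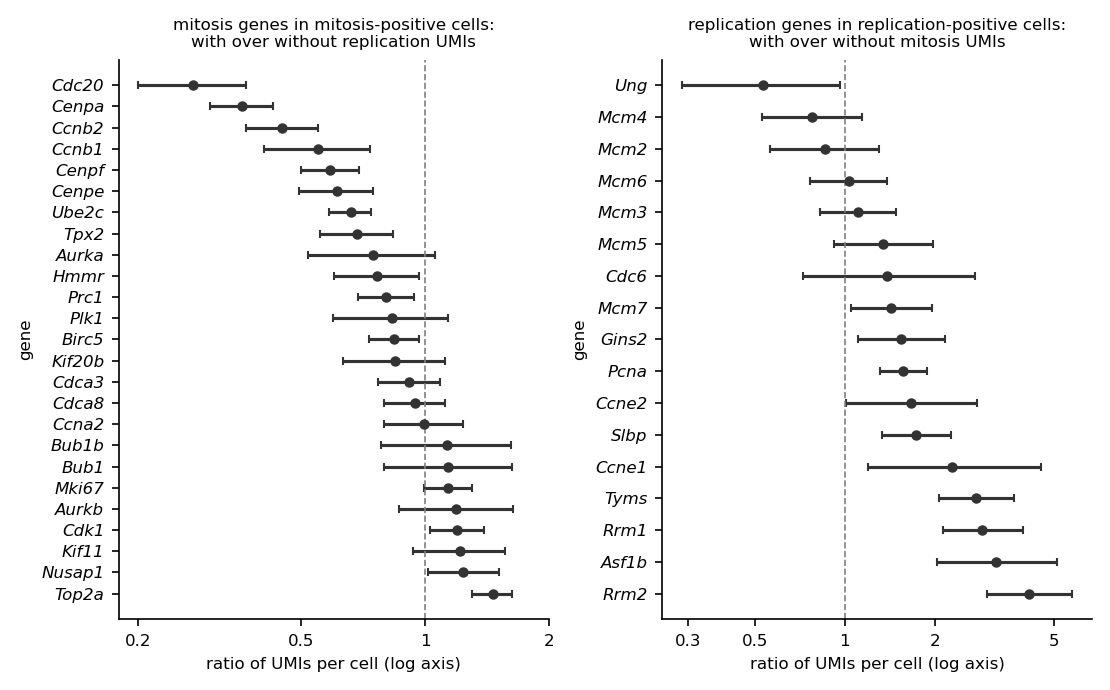
Ratio of UMIs per cell, on a log axis, for each mitosis gene in mitosis-positive cells with over without 3 replication UMIs (left), and for each replication gene in replication-positive cells with over without 3 mitosis UMIs (right), pooled over the 10 groups at 2000 UMIs; points are ratios, bars exact 95% intervals. Cdc20 (0.273) and Top2a (1.46) are the ends of the left panel, Ung (0.532) and Rrm2 (4.13) those of the right.

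Between the libraries, 4 classes could be compared, and a gene was called when its CPM differed at least 1.5-fold with the interval on that side of 1 and reached 10 CPM in a library. In endothelial-like cells all 25 mitosis genes were higher in GFPhi, against 9.03% of 9000 genes, and their sum was 1598 against 621 CPM, 2.57-fold (2.45 to 2.71). Prc1 stood at 132 and 34.6 CPM, 3.82-fold (3.13 to 4.68). Ube2c stood at 179 and 49.8 CPM, 3.6-fold (3.04 to 4.27), Top2a at 176 and 58.1 CPM, 3.03-fold (2.57 to 3.57), and Nusap1, a spindle protein, at 63.0 and 19.2 CPM, 3.28-fold (2.47 to 4.35). Of the replication genes 12 of the 15 that reached 10 CPM were called higher, among them Rrm2 (39.0 and 12.8 CPM) and Pcna (120.3 and 57.9 CPM), and none lower. Stmn1 was higher (393 and 194 CPM), Ccnd1 was not called (263 and 206 CPM), and Ccnd2 was lower, at 212 against 345 CPM (ratio 0.616, 0.551 to 0.687), as were 9.72% of all genes.

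The size of the endothelial-like difference depended on how cells were weighted. When every cell counted alike, as the mean of per-cell CPM, the mitosis sum was 1.41-fold and 12 of the 45 genes were called higher in place of 38. Without the cell with the most mitosis UMIs in each library it was 2.34-fold, with 32 called. The Prnd cluster made up 31.0% of endothelial-like cells in GFPhi and 14.4% in GFPlo, and within it the mitosis sum was 2299 against 796 CPM (2.89-fold); in the Sost cluster it was 818 against 569 CPM (1.44-fold). Macrophage markers summed to 2439.6 CPM in endothelial-like GFPhi and 82.9 CPM in GFPlo, with 16 and 2 of 18 at 10 CPM and Fcrls, Cd163 and Adgre1 at 0 in GFPlo. Without cells holding 5 or more macrophage marker UMIs, the sum was 2.83-fold.

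Lymphatic endothelial-like cells went the other way. All 25 mitosis genes were lower in GFPhi, against 7.10% of 9182 genes, and none was higher (5.26% of genes), with sums of 1229 and 2547 CPM, a ratio of 0.483 (0.454 to 0.513). Mki67 stood at 63.9 and 207 CPM (ratio 0.308, 0.236 to 0.398), Prc1 at 79.4 and 185 CPM (0.428, 0.335 to 0.543), Cdc20 at 37.4 and 95 CPM (0.394, 0.274 to 0.555) and Kif11, the motor that pushes spindle poles apart, at 18.2 and 56.4 CPM (0.324, 0.190 to 0.525). Of 14 replication genes at 10 CPM, 8 were called lower (Mcm2, Mcm5, Mcm6, Mcm7, Tyms, Rrm2, Gins2 and Asf1b), while Pcna stood at 123 and 118 CPM. Stmn1, Ccnd1 and Ccnd2 were not called. With equal weight for each cell the sum ratio was 0.552 and 22 genes were called in place of 33, and without the top cell of each library it was 0.393. Macrophage markers summed to 3351 CPM in GFPhi and 178 CPM in GFPlo, with 18 and 2 of 18 at 10 CPM and 7 at 0 in GFPlo, C1qa, C1qb and C1qc among them. Without cells holding 5 or more of their UMIs, the ratio was 0.415.

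In fibroblast-like cells 11 of the 21 mitosis genes at 10 CPM were called higher in GFPhi, against 3.03% of 8292 genes, and none lower (3.04%). Ube2c stood at 86.1 and 44.2 CPM, 1.95-fold (1.78 to 2.13), Birc5 at 52.9 and 28.8 CPM, 1.83-fold (1.64 to 2.05), Tpx2 at 33.7 and 19.2 CPM, 1.76-fold (1.53 to 2.02), and Nusap1 at 22.0 and 12.1 CPM, 1.82-fold (1.52 to 2.16). No replication gene was called, and their sums were 309 and 301 CPM. The count was 5 genes in place of 11 without the single cell with the most mitosis UMIs in each library, and the mitosis sum 1.42-fold in place of 1.55-fold (1.5 to 1.59). Scaling by the median of gene ratios in place of total UMIs gave 17 genes, and equal weight for each cell 5. The clusters took different shares of the class: the Acta2 cluster was 36.3% of GFPhi and 12.8% of GFPlo fibroblast-like cells, the Scara5 cluster 17.2% and 40%, and the Sfrp2 cluster 31.9% and 33.8%. Within the Acta2 cluster the mitosis sum was level within counting error, at 1111 and 1142 CPM (ratio 0.973, 0.939 to 1.01). It was 945 and 424 CPM in the Scara5 cluster, 2.23-fold (2.06 to 2.40) on 62 GFPhi cells, 442 and 370.4 CPM in the Thbs4 cluster (1.19, 1.08 to 1.32), and 120.0 and 155 CPM in the Sfrp2 cluster (0.772, 0.667 to 0.890). Macrophage markers summed to 1572 and 44.2 CPM, with 15 and 2 of 18 at 10 CPM and Fcrls and Cd163 at 0 in GFPlo. The mitosis sum was 1.59-fold without cells holding 5 or more of their UMIs.

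Mesothelial-like cells had 5 of 18 mitosis genes called lower in GFPhi, against 7.22% of 8419 genes, and 1 replication gene, Mcm2. Mki67 stood at 15.4 and 28.5 CPM (ratio 0.541, 0.466 to 0.626), Ccnb2 at 23.4 and 41.1 CPM (0.570, 0.505 to 0.642), Cenpa at 34.6 and 55.8 CPM (0.620, 0.560 to 0.684) and Cdca8, a subunit of the Aurora B complex, at 16.3 and 25.1 CPM (0.648, 0.559 to 0.750). Cenpe was the fifth. The mitosis sum was 467 against 661 CPM, a ratio of 0.707 (0.687 to 0.726). Ccnd1 went the other way, at 86.4 and 52.1 CPM, 1.66-fold (1.54 to 1.79) higher in GFPhi, as were 5.07% of genes. Different clusters held most of the class, the Krt14 cluster with 62.6% of GFPhi and the Pnoc cluster with 77.5% of GFPlo cells. Within the Krt14 cluster the mitosis sum was 477 and 453 CPM (ratio 1.05, 1.00 to 1.10), and within the Pnoc cluster 451 and 723 CPM (0.624, 0.599 to 0.650). Macrophage markers summed to 1179.7 and 171 CPM, with 11 and 4 of 18 at 10 CPM and Cd163 at 0 in GFPlo. The mitosis ratio was 0.693 without cells holding 5 or more of their UMIs. Scaling by the median of gene ratios in place of total UMIs gave 3 genes called lower in place of 6, as did equal weight for each cell, and leaving out the top cell of each library gave 9.

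**Figure D5:**
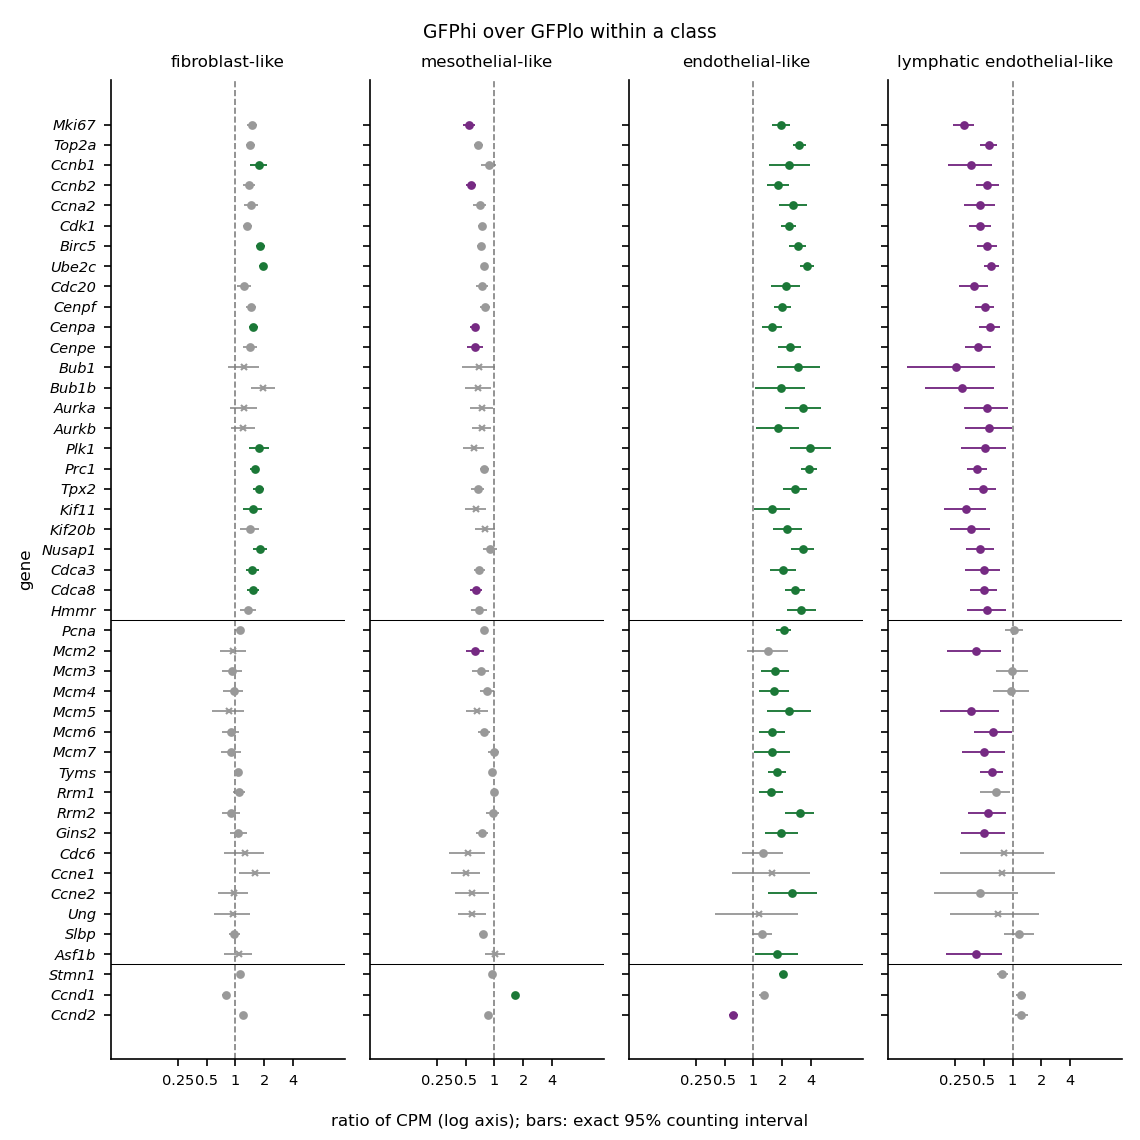
Ratio of CPM in GFPhi over GFPlo for each of the 45 genes within 4 classes, on a log axis, with exact 95% intervals as bars, 1 library each; green is called higher and purple called lower in GFPhi, grey not called, and crosses are genes under 10 CPM in both libraries. Endothelial-like cells have all 25 mitosis genes right of 1 and lymphatic endothelial-like cells all 25 left of it.

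Other genes of the same phases were read from lists that held none of the 45. In endothelial-like cells 27 of 40 other mitosis genes (30 at 10 CPM) and 15 of 38 other replication genes (28 at 10 CPM) were called higher in GFPhi and none lower, against 9.03% of all genes higher. In lymphatic endothelial-like cells 23 of 40 and 6 of 38 were lower and none higher, against 7.10% lower. Cks2, a small subunit of the cyclin kinases, stood at 109.9 and 51.5 CPM in endothelial-like and at 92.2 and 149 CPM in lymphatic endothelial-like cells of GFPhi and GFPlo. Smc2, a condensin subunit, stood at 125 and 44.0 CPM and at 68.4 and 145 CPM. In fibroblast-like cells 4 of 40 other mitosis genes were higher (3.03% of all genes). In mesothelial-like cells 3 were lower (7.22%) and Psrc1, a spindle protein, was higher (5.07%). No other replication gene was called in these classes. Of 13 cycle transcription factors 3 were higher in endothelial-like cells (E2f7, Lin54 and Lin9), against 9.03% of all genes. E2f7 was lower in lymphatic endothelial-like cells (7.10% of genes) and E2f3 in mesothelial-like cells (7.22%), shares of the list close to the background. Of 14 genes of chromatin and tubulin that dividing cells share with others, 6 were higher in endothelial-like cells (9.03% of genes) and 6 lower in lymphatic endothelial-like cells (7.10%). Dut, which removes dUTP and had the highest level of the other replication genes, stood at 884 CPM in T-like cells against 127 CPM or less elsewhere.

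Among G1 kinases and their inhibitors (11 genes), Cdkn1a, the p21 inhibitor, was higher in GFPhi in all 4 classes. Of all genes, 3.03% were higher in fibroblast-like, 5.07% in mesothelial-like, 9.03% in endothelial-like and 5.26% in lymphatic endothelial-like cells. Cdkn1a stood at 412 and 166 CPM in fibroblast-like, 501 and 129 CPM in mesothelial-like, 181 and 113 CPM in endothelial-like and 432 and 207 CPM in lymphatic endothelial-like cells. Cdkn1a was thus higher in GFPhi both where the mitosis genes were higher and where they were lower. Its level was 668 CPM in macrophage-like and 76.9 CPM in T-like cells. Macrophage markers were also higher in GFPhi in the 4 classes, and how much of the Cdkn1a there came from macrophage-like cells was not tested. Cdkn1c, the p57 inhibitor, was lower in GFPhi in endothelial-like (84.9 and 188 CPM) and fibroblast-like cells (16.0 and 25.2 CPM), as were 9.72% and 3.04% of all genes. Cdk4 was lower in lymphatic endothelial-like cells (149.6 and 239.6 CPM), as were 7.10% of all genes. Cdkn2a, the locus that drives the Cre, stayed at 10.0 CPM or below in both libraries of the 4 classes. In GFPhi and GFPlo it stood at 9.51 and 4.67 CPM in fibroblast-like and 3.28 and 5.35 CPM in mesothelial-like cells. It stood at 1.04 and 1.92 CPM in endothelial-like and 10.0 and 9.40 CPM in lymphatic endothelial-like cells. Only in the last did it reach the 10 CPM needed for a call, and it was not called there. In the other classes a difference could not be called. Cdk6 and Ccnd3 were highest in T-like cells, at 361 and 309 CPM.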

How the data were processed

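Both libraries were deposited as matrices of UMI counts per gene and cell, whole numbers with no normalization, per the file headers and values. The genome build is mm10, per the submitters' processing notes, and which aligner and counter made them was not given in the sources used here, nor was the calling of barcodes as cells. The labels name both a SeekOne 3′ kit and 10x Genomics. Cells with at least 300 genes, 500 UMIs and at most 20% mitochondrial UMIs were kept, which removed 305 GFPhi and 385 GFPlo barcodes. Doublets were not called.

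Cells were scaled to 10000 UMIs and clustered on 2000 variable genes, 30 principal components and 15 neighbours with Leiden at resolution 1.0 (scanpy 1.11.5, leidenalg 0.10.2, Python 3.11.15), after leaving out 495 genes: the members, other cycle genes, histone and reporter genes, and genes correlated with the lists (r above 0.2). A class needed 3 markers at 2-fold and in 10% of cells. Of 24 clusters 3 kept no name. Counts were summed per class and library. CPM carry Poisson intervals, shares Clopper-Pearson intervals, and ratios conditional binomial intervals (scipy 1.17.1), all at 95%. A class was called separate when its interval lay above that of the next class. The intervals and calls between libraries were checked on simulated Poisson counts. That is the model they assume, so the check does not cover spread between cells. Clustering, class naming, the split by phase and the promoter search were not simulated.

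The members and lists were chosen with earlier results of these data known. Values in every group were printed for 12 genes listed by symbol, and for each comparison the 4 called genes in each direction with the ratio interval farthest from 1. Other genes named (E2f3, E2f7, Lin54, Lin9, Psrc1, Cdkn1c and Cdkn2a, and members named beside counts or phase) were chosen after their values were seen. Of the other pathway genes, at most 4 per list with the highest levels were eligible. Gene positions are those of GENCODE vM21 on mm10. Alternatives changed the thinning depth, UMI threshold, clustering, filters, scaling, weighting and fold.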

Additional observations from a re-analysis of the deposited data

Results flagged for a closer look

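The summed mitosis genes differed between the libraries in opposite directions in the endothelial classes, at 2.57-fold in GFPhi over GFPlo in endothelial-like cells and at a ratio of 0.483 in lymphatic endothelial-like cells. With 1 library per group the difference between these effects was not tested.

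Cells that entered no comparison also held mitosis transcripts, counted as 3 or more UMIs at 2000 UMIs. Macrophage-like cells of GFPlo were 15.0% mitosis-positive (12 of 80), and T-like cells of GFPhi 36.0% (9 of 25). The clusters without a name were at 11.5% in GFPhi (26 of 227) and 10.7% in GFPlo (18 of 168). A cluster of GFPlo that carried markers of both natural killer and T cells was at 17.3% (55 of 318). Neutrophil-like cells of GFPlo were at 15.0% (3 of 20).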

How the results depend on the processing

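No ratio of GFPhi to GFPlo of the summed lists changed sides of 1 under these alternatives, but the order of the libraries turned without thinning for both shares of mesothelial-like cells and the replication-positive share of lymphatic endothelial-like cells. In fibroblast-like cells it turned for the replication-positive share at 1000 UMIs, and for the mitosis-positive share with the cell cycle genes in the clustering. With 0.5 or 2.0 as the clustering resolution, and with the stricter cell filter, all 20 shares stayed within their counting intervals. The alternatives that left out cells with macrophage markers, or the cell with the most mitosis UMIs, were chosen after seeing the data. Values that moved beyond the counting interval, or counts that moved by over 1.5 times, were as follows, and the cause was not tested. Thinned to 1000 UMIs, the mitosis-positive share was 4.44% in macrophage-like GFPhi, 2.89% in fibroblast-like GFPlo, 5.63% in mesothelial-like GFPlo, 4.57% in endothelial-like GFPlo, 13.7% in lymphatic endothelial-like GFPlo and 44.1% in T-like GFPlo cells. The replication-positive share was 2% in macrophage-like GFPhi, 0.833% in fibroblast-like GFPhi, 1.35% in fibroblast-like GFPlo, 0.949% in mesothelial-like GFPhi, 1.84% in mesothelial-like GFPlo, 2.86% in endothelial-like GFPhi, 1.39% in endothelial-like GFPlo, 1.94% in lymphatic endothelial-like GFPhi, 6.67% in lymphatic endothelial-like GFPlo and 25.8% in T-like GFPlo cells. Thinned to 4000 UMIs, the mitosis-positive share was 8.36% in macrophage-like GFPhi, 9.01% in fibroblast-like GFPhi, 5.68% in fibroblast-like GFPlo, 11.3% in mesothelial-like GFPlo, 15.9% in endothelial-like GFPhi, 9.15% in endothelial-like GFPlo, 29.3% in lymphatic endothelial-like GFPlo and 75% in T-like GFPlo cells. For replication-positive cells it was 12.5% in macrophage-like GFPhi, 9.88% in fibroblast-like GFPhi, 8.38% in fibroblast-like GFPlo, 10.7% in mesothelial-like GFPhi, 13.6% in mesothelial-like GFPlo, 21% in endothelial-like GFPhi, 10.9% in endothelial-like GFPlo, 28.2% in lymphatic endothelial-like GFPlo and 82.4% in T-like GFPlo cells. Without thinning, the mitosis-positive share was 12.8% in macrophage-like GFPhi, 18% in fibroblast-like GFPhi, 8.35% in fibroblast-like GFPlo, 24.8% in mesothelial-like GFPhi, 20.1% in mesothelial-like GFPlo and 48.7% in T-like GFPlo cells. The replication-positive share was 28.9% in macrophage-like GFPhi, 59.6% in fibroblast-like GFPhi, 29.5% in fibroblast-like GFPlo, 80.3% in mesothelial-like GFPhi, 56.5% in mesothelial-like GFPlo, 24.4% in endothelial-like GFPhi, 10.8% in endothelial-like GFPlo, 41.7% in lymphatic endothelial-like GFPhi and 33.7% in lymphatic endothelial-like GFPlo cells. With 2 UMIs as the threshold, the mitosis-positive share was 8.37% in macrophage-like GFPhi, 5.55% in fibroblast-like GFPlo and 10.9% in mesothelial-like GFPlo cells. For replication-positive cells it was 12.3% in macrophage-like GFPhi, 9.80% in fibroblast-like GFPhi, 8.92% in fibroblast-like GFPlo, 10.7% in mesothelial-like GFPhi, 12.4% in mesothelial-like GFPlo, 10.1% in endothelial-like GFPlo, 16.3% in lymphatic endothelial-like GFPhi, 22.7% in lymphatic endothelial-like GFPlo and 67.2% in T-like GFPlo cells. With 5 UMIs as the threshold, the mitosis-positive share was 4.86% in macrophage-like GFPhi, 3.21% in fibroblast-like GFPlo, 6.52% in mesothelial-like GFPlo and 53.2% in T-like GFPlo cells. The replication-positive share was 1.77% in macrophage-like GFPhi, 1.68% in fibroblast-like GFPhi, 1.44% in fibroblast-like GFPlo, 1.34% in mesothelial-like GFPhi, 1.54% in mesothelial-like GFPlo, 2.79% in endothelial-like GFPhi, 1.91% in endothelial-like GFPlo, 5.88% in lymphatic endothelial-like GFPlo and 36% in T-like GFPlo cells. With the cell cycle genes allowed in the clustering, so that dividing cells may form clusters of their own, the mitosis-positive share was 1.54% in fibroblast-like GFPhi and 1.56% in fibroblast-like GFPlo cells. For replication-positive cells it was 2.29% in fibroblast-like GFPlo cells. Without cells with 5 UMIs of another class's markers (only where 50 cells remained per library), the mitosis-positive share was 16.3% in endothelial-like GFPhi and 11.1% in endothelial-like GFPlo cells. The mitosis ratio of GFPhi to GFPlo was 2.80 in endothelial-like cells. The replication-positive share was 7.41% in endothelial-like GFPlo cells. The replication ratio of GFPhi to GFPlo was 1.47 in endothelial-like cells. With median-of-ratios scaling, the number of genes higher in GFPhi was 17 in fibroblast-like cells. The number of genes lower in GFPhi was 3 in mesothelial-like cells. The mitosis ratio of GFPhi to GFPlo was 1.65 in fibroblast-like and 0.757 in mesothelial-like cells. The replication ratio of GFPhi to GFPlo was 1.09 in fibroblast-like and 0.897 in mesothelial-like cells. With a minimum of 50 CPM, the number of genes higher in GFPhi was 4 in fibroblast-like and 16 in endothelial-like cells. The number of genes lower in GFPhi was 1 in mesothelial-like and 19 in lymphatic endothelial-like cells. At 2-fold, the number of genes higher in GFPhi was 0 in fibroblast-like, 0 in mesothelial-like and 24 in endothelial-like cells. The number of genes lower in GFPhi was 0 in mesothelial-like, 0 in endothelial-like and 17 in lymphatic endothelial-like cells. With equal weight for each cell, the number of genes higher in GFPhi was 5 in fibroblast-like and 12 in endothelial-like cells. The number of genes lower in GFPhi was 3 in mesothelial-like cells. The mitosis ratio of GFPhi to GFPlo was 1.44 in fibroblast-like, 0.802 in mesothelial-like, 1.41 in endothelial-like and 0.552 in lymphatic endothelial-like cells. The replication ratio of GFPhi to GFPlo was 1.08 in fibroblast-like, 0.935 in mesothelial-like, 1.46 in endothelial-like and 0.836 in lymphatic endothelial-like cells. Without the cell with the most mitosis UMIs in each library, the number of genes higher in GFPhi was 5 in fibroblast-like cells. The mitosis ratio of GFPhi to GFPlo was 1.42 in fibroblast-like, 0.677 in mesothelial-like, 2.34 in endothelial-like and 0.393 in lymphatic endothelial-like cells. Without a minimum CPM, the number of genes lower in GFPhi was 13 in mesothelial-like cells. Without cells with 5 macrophage marker UMIs, the mitosis ratio of GFPhi to GFPlo was 2.83 in endothelial-like and 0.415 in lymphatic endothelial-like cells. Thinned to 2000 UMIs, the ratio of mitosis to replication UMIs was 1.37 in macrophage-like GFPhi, 1.82 in fibroblast-like GFPhi, 1.22 in fibroblast-like GFPlo, 1.28 in mesothelial-like GFPhi, 1.49 in mesothelial-like GFPlo, 2.13 in endothelial-like GFPhi, 1.69 in endothelial-like GFPlo, 1.90 in lymphatic endothelial-like GFPhi and 2.68 in lymphatic endothelial-like GFPlo cells. Of 120 single-gene levels, 92 moved beyond their interval with equal weight for each cell and 28 did not. No paired analysis was possible because each group is 1 library, and no replicate could be left out for the same reason. Groups of few cells limit what depth can show: 98 lymphatic endothelial-like cells of GFPhi reached 2000 UMIs. Intervals leave out the spread between animals and sorts.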
